A study of Mus musculus with 10 samples.

Results

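The samples described here are whole right lungs of wild-type CD1 mouse pups at postnatal day 6, the control group of a study of lungs with 1 disrupted copy of Dll4. They were chosen by genotype label and by having a column of FPKM values (counts of read pairs scaled to exon length and to library size) in the deposited table. This left 4 of the 10 samples of the series and 4 of its 6 Dll4+/+ samples. Replicates 4 and 5 are labelled female and replicates 3 and 6 male, and values for the females are given in the order 4, 5 and those for the males in the order 3, 6. All carried 2 intact copies of Dll4, which encodes an endothelial ligand of Notch receptors, and were littermates of pups in which a lacZ reporter replaced 1 copy. No treatment was labelled. CD1 is an outbred stock, each library came from 1 pup, and litters are not given in the labels, so that pup, litter and library preparation cannot be told apart. No comparison of genotypes was made.

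In the first days after birth the mouse lung is still building its gas exchange surface. Septa that carry elastin-producing myofibroblasts grow into the saccules, a capillary network extends within them, and the epithelium consists of flat alveolar type I cells, which cover most of the surface, and cuboidal alveolar type II cells, which make surfactant, the lipid and protein film that keeps air spaces open. RNA of a whole lung mixes these cells with airway cells, blood and connective tissue, and in such bulk samples fewer cells of a type and less RNA per cell cannot be told apart.

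Depth was similar in the 4 libraries, with 18790345 and 17201662 fragments in the females and 17840548 and 19861362 in the males, as recovered from the steps of the FPKM values. For a transcript of 2000 bases, 3 fragments were worth between 0.0755 and 0.0872 FPKM, so that values below this are close to the limit of detection. The number of genes at 1 FPKM or above ran to 13563 and 13539 in the females and 13248 and 13545 in the males. The labelled tissue was matched by Nkx2-1, the transcription factor of lung epithelium, with 126 and 119 FPKM in the females and 105 and 131 FPKM in the males. Male replicate 3 stood apart from the other 3 pups. The median absolute difference of log2(FPKM + 1) between 2 pups was 0.09 to 0.10 among replicates 4, 5 and 6 and 0.23 to 0.26 between replicate 3 and each of them. In replicate 3, 335 genes held 50% of the summed FPKM, against 513 and 555 in the females and 493 in male replicate 6. Of the 13497 genes with a mean of 1 FPKM or more, replicate 3 was the highest pup in 33.6% and the lowest in 45.7%. The females were highest in 18.9% (replicate 4) and 28.8% (replicate 5) and lowest in 14.2% and 21.3%, and male replicate 6 was highest in 18.6% and lowest in 18.8%. Counts of list members that were highest or lowest in a pup stand beside these shares.

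The most abundant transcript was Sftpc, which encodes surfactant protein C, a product of alveolar type II cells. The gene lies on the reverse strand of chromosome 14 from 70520949 to 70524081 (GRCm38). It had 20403 and 17133 FPKM in the females and 26521 and 20282 FPKM in the males and ranked highest in every pup. Its mean of 21084 ± 3928 FPKM (SD, n = 4) made up 4.58% of the summed FPKM, and the lowest of its values lay above the highest value of any other gene. The spread over pups, a coefficient of variation (CV, SD as a share of the mean) of 18.6%, was far above the 0.182% that counting alone would give at this depth.

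**Figure D1:**
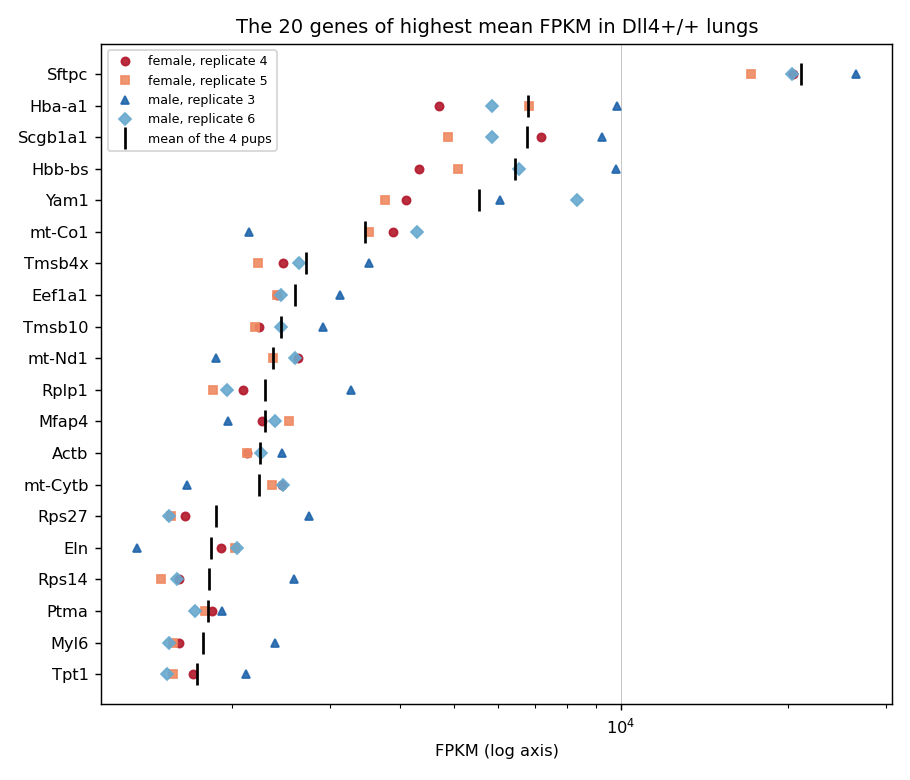
FPKM of the 20 genes of highest mean FPKM, on a log axis, with a point for each of the 4 Dll4+/+ pups and a bar at their mean. Sftpc stands apart at 17133 to 26521 FPKM, while the ranges of Hba-a1, Scgb1a1 and Hbb-bs overlap.

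The next 3 genes could not be ordered. Hba-a1, an alpha chain of adult hemoglobin, had 4699 and 6838 FPKM in the females and 9819.8 and 5858 FPKM in the males. Scgb1a1, the main secretory protein of airway club cells, had 7186 and 4880.1 FPKM in the females and 9229 and 5859 FPKM in the males. Hbb-bs, a beta chain of adult hemoglobin, had 4335 and 5090.4 FPKM in the females and 9797 and 6567 FPKM in the males. Hba-a1 ranked between 2 and 5 by pup, and all 3 genes were highest in male replicate 3. Sftpc and these 3 genes together held 8.27% and 7.85% of the summed FPKM in the females and 10.8% and 8.67% in the males.

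Yam1, listed as a lincRNA, ranked next by its mean. It had 4101 and 3761 FPKM in the females and 6053 and 8318 FPKM in the males, and was highest in male replicate 6. In GRCm38 it occupies 39846958 to 39848788 on the forward strand of chromosome 17, and RefSeq places Rn18s-rs5, a pseudogene related to the RNA of the small ribosomal subunit, across 39846354 to 39848202. Reads from ribosomal RNA that escaped the poly-A selection could not be told apart from a transcript of this locus. Gm26917, a processed transcript, had 121 and 130.2 FPKM in the females and 210.3 and 207 FPKM in the males. Both genes had their higher values in the 2 males.

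The remaining 15 genes of the highest 20 fell into a few groups by function. Cytoskeletal and actin-binding products were Tmsb4x (2710.3 ± 564 FPKM), Tmsb10 (2448 ± 328 FPKM), Actb (2239 ± 157 FPKM) and Myl6 (1773 ± 410.1 FPKM; SD, n = 4 each). Products of protein synthesis were the elongation factor Eef1a1 (2595 ± 349.9 FPKM) and the ribosomal proteins Rplp1 (2290.1 ± 660.0 FPKM), Rps27 (1869 ± 585 FPKM) and Rps14 (1816 ± 514 FPKM). Rps14 had 1599.9 and 1491 FPKM in the females and 2584 and 1588 FPKM in the males, and in Rplp1, Rps27 and Rps14 alike male replicate 3 was the highest pup. Of the electron transport chain, the mitochondrially encoded genes mt-Co1 (3463 ± 935 FPKM), mt-Nd1 (2363 ± 347 FPKM) and mt-Cytb (2235 ± 389 FPKM) were among the 20. mt-Co1 had 3889 and 3516 FPKM in the females and 2146 and 4299.8 FPKM in the males, and all 3 were lowest in male replicate 3. The chromatin-associated Ptma (1811 ± 85.5 FPKM) and the growth-related Tpt1 (1726 ± 271 FPKM) completed these groups.

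Matrix genes were also among the 20. Mfap4, a glycoprotein of elastic fibers, had 2265 and 2532 FPKM in the females and 1965 and 2389 FPKM in the males. Eln, which encodes elastin, had 1911 and 2022 FPKM in the females and 1348 and 2042 FPKM in the males. Eln ranked 15 and 14 in the females and 14 in male replicate 6, but 35 in male replicate 3. Ranked without replicate 3, or by the median over pups, the same 20 genes were named. Eln left the 20 and Rps12 entered without female replicate 5 or without male replicate 6, and Tpt1 left for Rps12 without female replicate 4. Genes were also ranked by FPKM times the length recovered for each gene, as described under processing, which weighs genes by their fragments. In that ranking 15 of the 20 stayed. The collagens Col3a1 and Col4a1, the elongation factor Eef2, Nrep and the matrix glycoprotein Sparc replaced Myl6, Rplp1, Rps14, Rps27 and Tmsb10.

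Across the table, 12729 of 35275 genes had an FPKM of 1 or more in every lung, 14231 in at least 1 lung, and 11963 were listed at 0 in all 4. The mean FPKM was 10 or more for 6728 genes, 100 or more for 658 and 1000 or more for 37. Protein-coding genes held 97.0% and 96.9% of the summed FPKM in the females and 96.7% and 95.9% in the males, 96.6% ± 0.513 on average (SD, n = 4). Of 22026 protein-coding genes 54.9% were at 1 FPKM or more in every lung, against 5.92% of 2769 lincRNAs, 7.05% of 1731 antisense genes and 2.90% of 7373 pseudogenes.

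Most of the share of lincRNAs was held by Yam1. LincRNAs held 1.39% and 1.34% in the females and 1.56% and 2.32% in the males. Without Yam1 this share was 0.459% and 0.467% in the females and 0.372% and 0.445% in the males. Malat1, a nuclear RNA found in most cells, had 247 and 259 FPKM in the females and 129 and 282 FPKM in the males. H19, a maternally expressed imprinted RNA abundant in the fetus, had 142 and 169 FPKM in the females and 186 and 147 FPKM in the males. Processed transcripts (0.258% ± 0.00635) and antisense genes (0.215% ± 0.0275; SD, n = 4 each) were led by Gm26917 and by Gm17201. Hotairm1, an antisense RNA of the HoxA cluster, had 27.1 ± 3.46 FPKM. The sources used here name no strand setting, so reads of an antisense gene and of its partner cannot be told apart.

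Pseudogenes held 1.23% ± 0.0789 of the summed FPKM (SD, n = 4). The highest were Rpl34-ps1 (465 ± 97.7 FPKM), Gm15772 (417 ± 96.5 FPKM) and Gm3788 (278 ± 81.4 FPKM). Since such copies share sequence with their parent genes, how reads were split between them is uncertain. Immunoglobulin and T cell receptor constant genes were led by Igkc, the kappa light chain, with 15.2 and 13.7 FPKM in the females and 38.5 and 18.9 FPKM in the males, followed by Ighm at 17.7 ± 4.66 FPKM and Trbc2 at 8.004 ± 2.99 FPKM. All 3 were highest in male replicate 3, and variable and joining segments had a mean below 2 FPKM in each case.

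Marker genes of the lung's cells and of blood and tissues that may be carried along were grouped into 35 lists, whose 284 genes held 12.9% ± 1.25 of the summed FPKM. Epithelial lists held 7.51% ± 0.761, erythroid and platelet lists 3.12% ± 0.828, mesenchymal lists 1.27% ± 0.111, endothelial lists 0.787% ± 0.0501 and immune lists 0.0966% ± 0.00988 (SD, n = 4 each). These shares follow the most abundant members and are not shares of cells. They are also relative to a summed FPKM that was highest in male replicate 3 (511696 FPKM, against 432404 to 444602 FPKM in the other pups). Without its most abundant gene in each case, the epithelial share was 2.93% ± 0.273 (without Sftpc), the blood share 1.65% ± 0.498 (without Hba-a1), the mesenchymal share 0.768% ± 0.0287 (without Mfap4) and the endothelial share 0.671% ± 0.0562 (without Cldn5). Without male replicate 3 the 5 shares were 7.22% ± 0.612 (epithelial), 2.73% ± 0.340 (blood), 1.33% ± 0.0326 (mesenchymal), 0.809% ± 0.0271 (endothelial) and 0.0957% ± 0.0119 (immune; SD, n = 3 each).

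**Figure D2:**
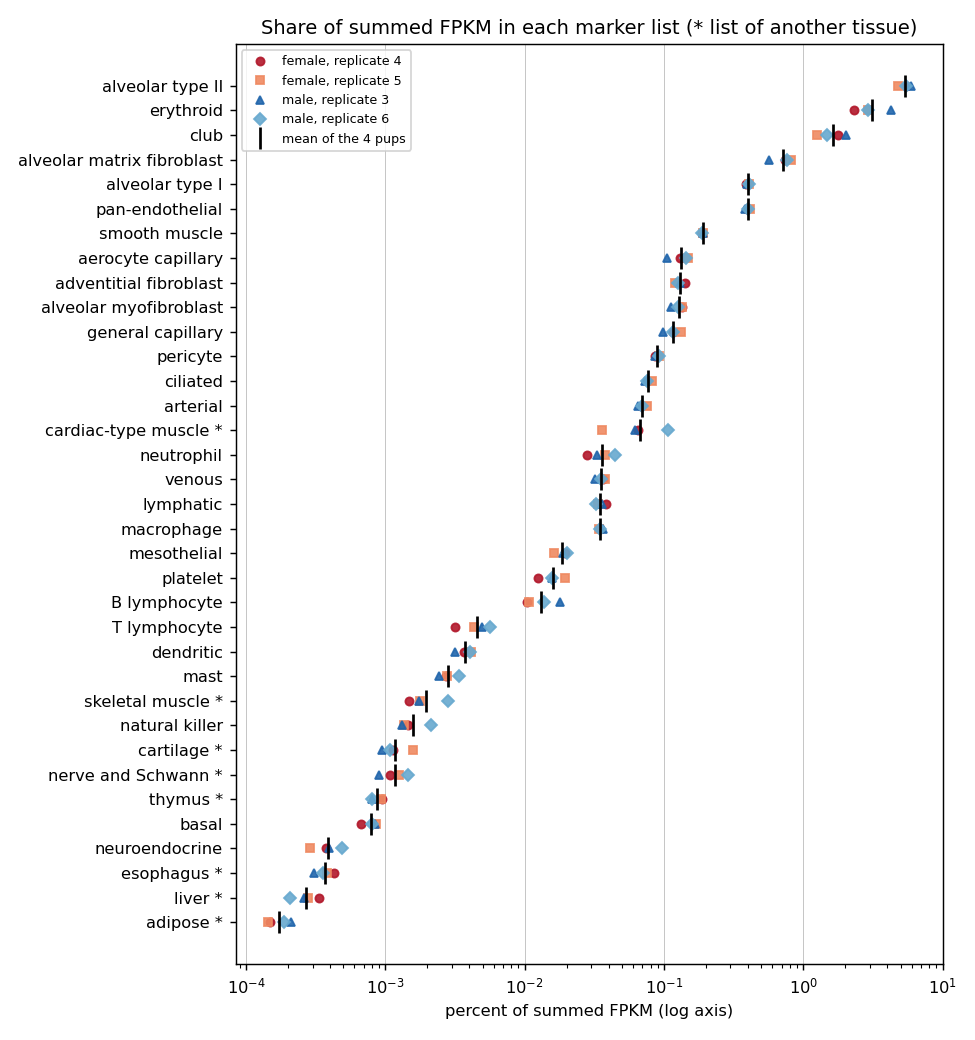
Share of the summed FPKM held by each of 35 marker lists, on a log axis, with a point per Dll4+/+ pup and a bar at the mean; lists of tissues other than lung and blood are marked with an asterisk. Alveolar type II, erythroid and club lists lie highest, and the erythroid and cardiac-type muscle lists have wide ranges.

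All 16 alveolar type II markers were at 1 FPKM or more in every lung, and their share was 5.47% and 4.80% in the females and 5.89% and 5.48% in the males. Sftpc made up 84.8% of the list. Sftpb, which encodes the surfactant protein needed to spread the film, had 1316 and 1246 FPKM in the females and 1069 and 1395 FPKM in the males. Lyz1, a lysozyme, had 591 and 629 FPKM in the females and 660.5 and 679 FPKM in the males. The chemokine Cxcl15 (431 ± 45.8 FPKM), the collectin genes Sftpa1 (287 ± 34.2 FPKM) and Sftpd (189 ± 15.4 FPKM), and the phosphate transporter Slc34a2 (238 ± 43.8 FPKM) followed. Abca3, the lipid transporter of lamellar bodies, where surfactant is stored, had 42.7 and 46.2 FPKM in the females and 15.4 and 45.8 FPKM in the males. It was lowest in male replicate 3, and 8 of the 16 markers had their lowest value there, near the 45.7% of all genes. In male replicate 6, 8 of the 16 were highest, beside 18.6% of all genes.

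Alveolar type I markers held a smaller and steadier share, 0.388% and 0.405% in the females and 0.397% and 0.409% in the males, with 14 of 14 at 1 FPKM or more in every lung. Ager, the receptor for glycated proteins that is abundant in these cells, had 730.5 and 761 FPKM in the females and 941 and 745 FPKM in the males. Hopx, a homeodomain protein, had 159 and 145 FPKM in the females and 231 and 172 FPKM in the males. Aqp5, a water channel, had 131 and 129 FPKM in the females and 127 and 137 FPKM in the males, a CV of 3.22%, and Pdpn, a membrane glycoprotein, had 30.7 ± 1.19 FPKM with a CV of 3.88%. Ager and Hopx were highest in male replicate 3, while Aqp5 was lowest there.

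Airway epithelium was represented mainly by club cells. Their list held 1.76% and 1.24% in the females and 2.02% and 1.48% in the males, of which Scgb1a1 made up 90.3%. Scgb3a2, another secretoglobin, had 462 and 366 FPKM in the females and 939.7 and 567 FPKM in the males, and Cyp2f2, a cytochrome of club cells, had 111 and 93.9 FPKM in the females and 114 and 97.8 FPKM in the males. The related Scgb3a1, a product of proximal airways, was low and uneven, with 4.45 and 1.17 FPKM in the females and 1.03 and 13.3 FPKM in the males. Bpifa1 and Kcnj16 were listed at 0 in 2 and 3 of the 4 lungs.

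Of 12 ciliated cell markers 10 were at 1 FPKM or more in every lung. Foxj1, the transcription factor that drives the building of motile cilia, had 13.2 and 12.2 FPKM in the females and 10.04 and 12.2 FPKM in the males, and Tppp3, a tubulin-binding protein, had 165 and 177 FPKM in the females and 231 and 175 FPKM in the males. Neuroendocrine and basal cell markers were low, with a median member at 0.252 FPKM and 0.193 FPKM. No neuroendocrine marker reached 1 FPKM in every lung, as for Chga, a protein of their secretory granules, with 0.198 and 0.124 FPKM in the females and 0.0596 and 0.0268 FPKM in the males. The basal keratin Krt5 was listed at 0 in 3 lungs and Trp63, the basal cell transcription factor, had 0.0992 and 0.0217 FPKM in the females and 0.0104 and 0.0469 FPKM in the males. Of the 5 basal markers Krt15 alone was above 1 FPKM in every lung, at 3.12 ± 0.604 FPKM (SD, n = 4).

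All 12 pan-endothelial markers were at 1 FPKM or more in every lung, and they were among the steadier lists, with a share of 0.397% and 0.413% in the females and 0.384% and 0.402% in the males. Cldn5, a tight junction protein, had 481 and 482 FPKM in the females and 642 and 517 FPKM in the males. Egfl7, a secreted endothelial factor, had 306 ± 14.7 FPKM, and Pecam1, a junctional adhesion molecule, had 163 and 168 FPKM in the females and 164 and 159 FPKM in the males. Tie1, an endothelial receptor kinase, had a CV of 1.89% and was among the 10 steadiest genes above 100 FPKM. Erg, an endothelial transcription factor, was lowest in male replicate 3, with 21.9 and 26.5 FPKM in the females and 14.5 and 20.1 FPKM in the males.

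The 2 kinds of alveolar capillary cell had lists of similar share when all members were counted. Aerocyte markers, of the cells specialised for gas exchange, held 0.130% and 0.148% in the females and 0.105% and 0.144% in the males, led by the transcription factor Tbx2 (289 ± 34.3 FPKM), which other lung cells also express, Car4, a carbonic anhydrase, with 53.05 and 71.4 FPKM in the females and 73.99 and 74.00 FPKM in the males, and Kdr, the main receptor for vascular endothelial growth factor, with 67.3 ± 9.17 FPKM. General capillary markers held 0.117% and 0.132% in the females and 0.0980% and 0.117% in the males, led by Tmem100 (164 ± 14.5 FPKM) and Plvap (126 ± 9.54 FPKM). Gpihbp1, which anchors lipoprotein lipase at capillaries, had 45.4 and 46.6 FPKM in the females and 58.9 and 50.4 FPKM in the males, and Aplnr, the apelin receptor, had 66.7 and 66.2 FPKM in the females and 60.7 and 58.1 FPKM in the males. Its ligand gene Apln, an aerocyte marker, had 24.2 and 28.3 FPKM in the females and 21.9 and 32.6 FPKM in the males. In both lists male replicate 3 had the lowest share. Tbx2 made up 48.4% of the aerocyte list and Tmem100 31.1% of the general capillary list, so the similar shares rest in part on Tbx2.

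Dll4 had 25.8 and 30.7 FPKM in the females and 22.7 and 31.3 FPKM in the males in these lungs, a mean of 27.6 ± 4.12 FPKM with a CV of 14.9% and a rank of 2931. Among other arterial markers, Gja5, an arterial gap junction protein, had 37.7 and 38.1 FPKM in the females and 36.4 and 39.6 FPKM in the males with a CV of 3.51%. Gja4 had 58.7 and 65.5 FPKM in the females and 92.6 and 58.1 FPKM in the males, its highest value in male replicate 3. Venous markers held 0.0355% ± 0.00266, led by Nr2f2, the transcription factor of venous identity (53.1 ± 2.02 FPKM), and Ephb4, a receptor kinase of veins (52.8 ± 2.01 FPKM). The defining lymphatic transcription factor Prox1 was below 1 FPKM in every lung, at 0.646 and 0.757 FPKM in the females and 0.630 and 0.859 FPKM in the males, while Lyve1, a hyaluronan receptor also carried by some macrophages, had 109 and 86.6 FPKM in the females and 80.6 and 77.8 FPKM in the males.

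The ligands and receptors that pattern growing vessels spanned a wide range. Vegfa, the growth factor that Kdr binds, had 302 and 312 FPKM in the females and 207 and 307 FPKM in the males, the highest level in a list of 15 genes of the VEGF and Notch pathways. The Notch target Hes1 had 68.6 and 76.6 FPKM in the females and 91.8 and 77.5 FPKM in the males. Of the receptors in this list, Notch4 had 26.8 ± 2.90 FPKM and Notch2 9.07 ± 1.49 FPKM. Notch1 had 7.37 and 9.71 FPKM in the females and 2.82 and 6.83 FPKM in the males. Notch3, placed in the pericyte list instead, had 25.3 and 29.9 FPKM in the females and 14.7 and 27.4 FPKM in the males. The ligands Jag2 (15.6 ± 3.21 FPKM), Jag1 (9.69 ± 0.894 FPKM) and Dll1 (8.22 ± 0.429 FPKM) lay below Dll4. In male replicate 3, 12 of the 15 genes had their lowest value, among them Vegfa and Notch1, while Hes1 and Notch4 were highest there. The list held 0.130% ± 0.0213 of the summed FPKM (SD, n = 4), and 0.140% ± 0.00495 without that pup (SD, n = 3).

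Mesenchymal lists were led by matrix-producing cells. Alveolar matrix fibroblast markers held 0.735% and 0.810% in the females and 0.571% and 0.759% in the males, with Mfap4 at 70.1% of the list and Tcf21, a transcription factor of the mesenchyme, at 349 and 317 FPKM in the females and 414 and 361 FPKM in the males. Myofibroblast markers were led by Tgfbi (382 ± 12.4 FPKM), and Pdgfra, the receptor that marks the septal myofibroblast lineage, had 31.5 and 27.3 FPKM in the females and 24.2 and 24.1 FPKM in the males. Smooth muscle markers had the smallest relative spread of share of any marker list, 0.188% and 0.191% in the females and 0.191% and 0.186% in the males. Their summed FPKM was less even, with 832 and 826 FPKM in the females and 976 and 829 FPKM in the males. Tagln had 359 ± 48.96 FPKM, and Acta2, smooth muscle actin, had 286 and 292 FPKM in the females and 345 and 306 FPKM in the males. Pericyte markers held 0.0890% ± 0.00333, led by Cox4i2 (145 ± 26.9 FPKM), and Pdgfrb, the receptor that recruits pericytes to vessels, had 54.02 ± 6.41 FPKM.

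Adventitial fibroblast markers were led by Dpt (384 ± 28.9 FPKM) and Clec3b (154 ± 34.5 FPKM), and all 7 were lowest in female replicate 5. Dcn, a small proteoglycan, had 15.5 and 6.72 FPKM in the females and 13.3 and 14.04 FPKM in the males. Mesothelial cells were represented by Msln at 60.1 and 47.4 FPKM in the females and 72.3 and 59.1 FPKM in the males, while their defining transcription factor Wt1 lay below 1 FPKM in every lung, at 0.862 ± 0.169 FPKM.

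Genes of elastic fibers and collagens held 0.973% and 1.03% in the females and 0.666% and 0.972% in the males, a mean of 0.910% ± 0.164 (SD, n = 4), and 0.991% ± 0.0321 without male replicate 3 (SD, n = 3). All 15 were at 1 FPKM or more in every lung. After Eln came the fibrillar collagens Col3a1 (439 and 415 FPKM in the females and 407 and 399 FPKM in the males) and Col1a2 (379 and 377 FPKM in the females and 340.2 and 368 FPKM in the males), and the basement membrane collagen Col4a1 (337 and 374 FPKM in the females and 261 and 326 FPKM in the males). Emilin1, an elastic fiber glycoprotein, had a CV of 0.687% at 70.8 ± 0.487 FPKM. Lox and Loxl1, which crosslink elastin, had 23.8 ± 1.86 FPKM and 81.1 ± 5.39 FPKM, and Fbln5, which assists its assembly, had 87.6 ± 4.05 FPKM (SD, n = 4 each). The lower share in male replicate 3 followed Eln and Col1a1, the second of which had 296 and 297 FPKM in the females and 196 and 265 FPKM in the males, and 9 of the 15 were lowest in that pup.

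Immune markers were low. Of the 60 genes in 7 lists the highest was S100a9, a calcium-binding protein of neutrophils, with 52.7 and 69.4 FPKM in the females and 69.4 and 84.4 FPKM in the males. The neutrophil list held 0.0280% and 0.0377% in the females and 0.0332% and 0.0446% in the males, and of its 8 members with a mean of 1 FPKM or more 6 were highest in male replicate 6 and 7 were lowest in female replicate 4. The macrophage list was steadier, 0.0349% and 0.0339% in the females and 0.0363% and 0.0345% in the males. C1qa, a complement subunit made by macrophages, had 43.1 and 30.7 FPKM in the females and 55.5 and 41.2 FPKM in the males, and Adgre1, the defining surface protein of mouse macrophages, 3.26 and 3.03 FPKM in the females and 3.14 and 3.17 FPKM in the males.

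Lymphocyte markers held larger shares in the 2 males than in the 2 females, though 0 of the 7 B and 6 T lymphocyte genes tested passed the limma test of sex given below, beside 0.0366% of all genes tested. At an unadjusted p below 0.05 limma gave 5 of the B and 3 of the T lymphocyte genes, against 513 of 13668 overall. B lymphocyte markers held 0.0104% and 0.0107% in the females and 0.0179% and 0.0138% in the males, and Cd79a, a chain of the B cell receptor complex, had 4.46 and 5.35 FPKM in the females and 8.77 and 8.19 FPKM in the males. T lymphocyte markers held 0.00318% and 0.00432% in the females and 0.00497% and 0.00560% in the males, with Cd3g, a chain of the T cell receptor complex, at 1.35 and 2.16 FPKM in the females and 3.01 and 2.95 FPKM in the males. In Cd79a and Cd3g both females lay below both males, as in 15.2% of all genes tested. Foxn1, Psmb11 and Rag1, defining genes of the thymus, each had less than 0.1 FPKM in every lung. Mast, dendritic and natural killer lists each held at most 0.00375% of the summed FPKM on average.

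The erythroid list had the widest range in absolute terms, 2.32% and 2.92% in the females and 4.27% and 2.89% in the males. Its mean was 3.10% ± 0.827 (SD, n = 4), and 2.71% ± 0.336 without male replicate 3 (SD, n = 3). Hba-a1 and Hbb-bs were the main members. Alas2, the erythroid enzyme of heme synthesis, had 37.2 and 46.98 FPKM in the females and 63.5 and 41.4 FPKM in the males and was, like them, highest in male replicate 3. Slc4a1, the anion exchanger of red cells, went the other way, with 11.4 and 12.2 FPKM in the females and 9.06 and 9.70 FPKM in the males. The embryonic globins Hba-x, Hbb-y and Hbb-bh1 summed to at most 0.336 FPKM in any lung. Platelet markers held 0.0125% and 0.0196% in the females and 0.0158% and 0.0157% in the males, led by Pf4, a platelet chemokine, with 32.4 and 46.3 FPKM in the females and 51.7 and 45.5 FPKM in the males.

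Among the lists of tissues other than lung and blood, cardiac-type muscle held the largest share. Of 9 cardiac-type muscle genes 7 were at 1 FPKM or more in every lung, and the list held 0.0655% and 0.0361% in the females and 0.0620% and 0.106% in the males. Myl7, an atrial myosin light chain, had 131 and 64.7 FPKM in the females and 162 and 209 FPKM in the males. Actc1, cardiac actin, had 53.8 and 33.9 FPKM in the females and 42.5 and 92.8 FPKM in the males. Myh6, cardiac myosin, had 24.5 and 14.5 FPKM in the females and 14.8 and 40.3 FPKM in the males. Of the 8 genes with a mean of 1 FPKM or more all 8 were highest in male replicate 6 and 7 were lowest in female replicate 5. Nppa, an atrial hormone gene, was listed at 0 in 3 lungs and at 0.116 FPKM in male replicate 6. Mouse pulmonary veins carry a sleeve of cardiac muscle, and the source of these transcripts was not tested. Skeletal muscle, thymus, cartilage, adipose tissue, nerve, liver and esophagus lists each held at most 0.00195% of the summed FPKM on average.

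Proliferation genes were present in every lung and nearly even. Of 18 cell cycle genes 18 were at 1 FPKM or more in every lung. Mki67, the standard proliferation marker, had 25.7 and 26.7 FPKM in the females and 21.2 and 24.9 FPKM in the males, and Pcna, the replication clamp, 99.04 and 99.1 FPKM in the females and 119.9 and 99.4 FPKM in the males. The median CV of the 18 genes was 9.31%, against 12.3% over all 13497 genes with a mean of 1 FPKM or more.

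Other programs differed more between pups. Immediate early genes, which respond within minutes to stimuli and handling, had their lowest value in male replicate 3 in 11 of the 13 with a mean of 1 FPKM or more. Nr4a1, a nuclear receptor, had 80.5 and 118 FPKM in the females and 31.7 and 102 FPKM in the males. Egr1, a zinc finger factor, had 41.9 and 54.2 FPKM in the females and 27.9 and 38.6 FPKM in the males. Ier2, by contrast, was highest in replicate 3, at 116 and 121 FPKM in the females and 133 and 115 FPKM in the males. Sterol and fatty acid synthesis genes were lowest in male replicate 3 in 12 of 13 cases, as for the desaturase gene Scd1, with 59.5 and 50.4 FPKM in the females and 35.97 and 77.7 FPKM in the males. Without that pup the immediate early list held 0.175% ± 0.0169 (SD, n = 3) in place of 0.157% ± 0.0382 (SD, n = 4), and the sterol and fatty acid list 0.106% ± 0.00322 in place of 0.0959% ± 0.0197. Of 14 circadian clock genes 14 were at 1 FPKM or more in every lung, with Per1 at 14.6 and 16.01 FPKM in the females and 10.1 and 17.8 FPKM in the males. Of 10 glucocorticoid-induced genes 9 were, led by the metallothionein Mt1 with 151 and 115 FPKM in the females and 177 and 124 FPKM in the males. Imprinted genes held 0.134% ± 0.0130, led by H19, with Igf2 at 20.9 and 22.9 FPKM in the females and 22.9 and 27.1 FPKM in the males.

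Mitochondrially encoded protein genes held 2.82% and 2.70% in the females and 1.59% and 2.87% in the males. Their levels were uneven between genes, since mt-Co1, mt-Nd1, mt-Cytb, mt-Nd2, mt-Nd4, mt-Nd6 and mt-Nd5 had means of 669.5 to 3463 FPKM, while mt-Co2 (19.6 ± 1.65 FPKM), mt-Co3 (18.7 ± 1.87 FPKM) and mt-Atp6 (12.9 ± 1.27 FPKM) lay far lower and mt-Atp8 was listed at 0 in 2 lungs. The sources used here do not say how reads shared with nuclear copies of mitochondrial genes were counted. Without male replicate 3 the mean share of the mitochondrial list was 2.80% ± 0.0901 (SD, n = 3), in place of 2.49% ± 0.608 (SD, n = 4). Protein-coding genes of ribosomal proteins held 10.8% and 10.3% in the females and 13.9% and 10.02% in the males. In male replicate 3 their share was thus the highest, where that of the mitochondrial genes was the lowest.

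The pup-to-pup spread of a gene was summarised by its CV. Over the 13497 genes with a mean of 1 FPKM or more its median was 12.3%, with quartiles of 7.63% and 19.2%, against a median of 4.18% that counting alone would give at the recovered depth. Without male replicate 3 the median was 6.46%. Without replicate 4, 5 or 6 it was 13.4%, 12.7% and 13.2%. By level, the median was 19.8% from 1 to 3 FPKM and 9.66% from 30 to 100 FPKM, and it was 20.9% among the 37 genes of 1000 FPKM or more, where it was 5.63% without replicate 3.

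**Figure D3:**
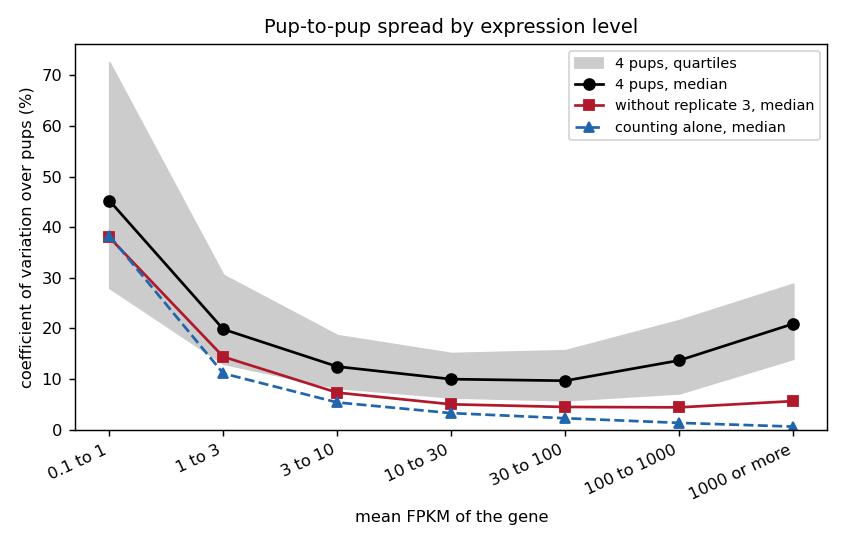
Median coefficient of variation over pups by mean FPKM of the gene, for all 4 Dll4+/+ pups (black, quartiles in grey), without male replicate 3 (squares) and as counting alone would give (triangles). In the highest class the median is 20.9% with and 5.63% without replicate 3.

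The distance of replicate 3, taken as a median over classes of genes, followed the length of genes. Each pup was set against the mean of the other 3 on the log2(FPKM + 1) scale, in length classes drawn up after the values had been seen. Among 504 genes with 500 to 1000 bases of exon, the median of replicate 3 was 0.34, and among 2249 genes with 8000 bases or more it was -0.29. The other 3 pups lay between -0.15 and 0.14 in every class. The medians do not describe every gene. The short genes mt-Nd1 (2751 to 3707 of the mitochondrial genome), mt-Cytb (14145 to 15288) and mt-Co1 (5328 to 6872) were lowest in replicate 3. Whether RNA quality or library preparation differed for this pup was not tested.

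**Figure D4:**
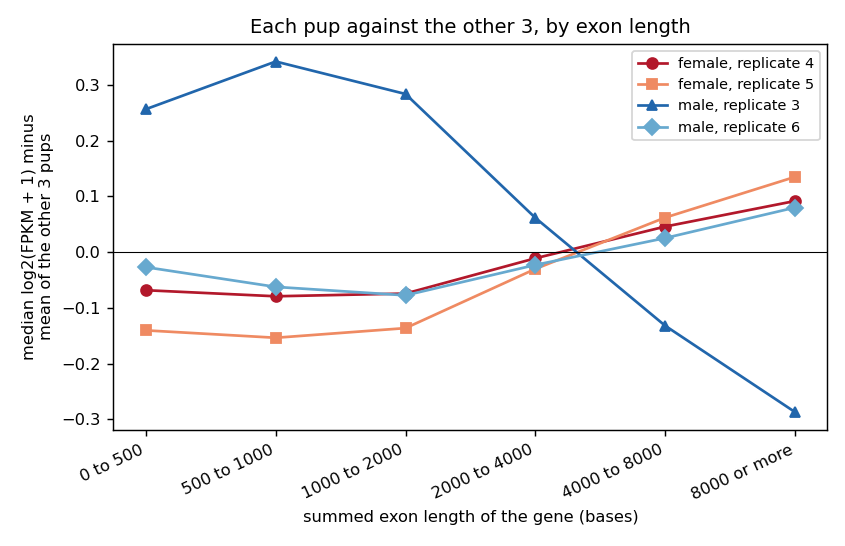
Median difference of log2(FPKM + 1) between each Dll4+/+ pup and the mean of the other 3, by summed exon length of the gene (genes with mean FPKM of 1 or more). Male replicate 3 lies at 0.26 to 0.34 in the 3 shortest classes and at -0.29 among genes of 8000 bases or more, while the other pups stay between -0.15 and 0.14.

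The steadiest genes above 100 FPKM had a CV of 1.18% to 1.94% over the 4 pups, replicate 3 included. Gnb1, a G protein beta subunit, had 198 and 198 FPKM in the females and 196 and 193 FPKM in the males. Ywhab, a phosphoprotein-binding adaptor, had 141 and 139.7 FPKM in the females and 139 and 143 FPKM in the males, and Ppp2r1a, the scaffold subunit of a protein phosphatase, had 104 and 102 FPKM in the females and 105 and 102 FPKM in the males. The others were Mlf2, the glutamine synthetase Glul, Lbh, the junctional plakoglobin Jup, the tropomyosin Tpm4, Tie1 and the survival protein Mcl1. These 10 were picked as the lowest CVs of 658 genes, which favours low values. For comparison, Actb had a CV of 7.02% and Gapdh, a glycolytic enzyme often used as a reference, 9.27% with 219 and 227 FPKM in the females and 269 and 244 FPKM in the males.

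At the other end, 313 genes (2.32%) had a CV over 50%. They were 157 protein-coding genes (1.24% of that type), 78 pseudogenes (25.2%), 33 antisense genes (17.9%) and 22 lincRNAs (10.3%), with the rest in smaller types. The most variable genes above 10 FPKM included many pseudogenes and other gene copies. Rps2-ps13, a pseudogene copy of a ribosomal protein gene, had 0.543 and 0.725 FPKM in the females and 382 and 1.03 FPKM in the males. Rps2-ps10, another copy, had 208 and 215 FPKM in the females and 1.68 and 246 FPKM in the males. Their parent Rps2 had 646 and 626 FPKM in the females and 866 and 655 FPKM in the males. The sum of the 2 copies without the parent was 208 and 215 FPKM in the females and 383 and 247 FPKM in the males, a CV of 31.0%. The high copy was Rps2-ps13 in male replicate 3 and Rps2-ps10 in the other 3 pups.

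The hemoglobin genes have near-identical copies too. Hba-a2, the near-identical neighbor of Hba-a1, had 604 and 1.99 FPKM in the females and 1025 and 314 FPKM in the males, a CV of 89.6%. The sum of both alpha genes had a CV of 33.6%, and Hba-a1, which makes up most of it, 32.2%. Hbb-bt, the second adult beta gene, had 598 and 650.1 FPKM in the females and 1140.1 and 48.6 FPKM in the males, and the sum of both beta genes had a CV of 37.9%, near the 37.5% of Hbb-bs alone. The ratio of the alpha sum to the beta sum was 1.07 and 1.19 in the females and 0.992 and 0.933 in the males. How reads were split between such copies is uncertain, and whether pups of this outbred stock carry different alleles of them was not tested. Rpl26, a ribosomal protein gene, had 319 and 17.3 FPKM in the females and 470.2 and 14.7 FPKM in the males, with high values in 1 pup of each sex. The pseudogenes Gm8399 and Gm14719 were high in replicates 5 and 6, and Gm8399 had 1.57 and 122 FPKM in the females and 1.40 and 126 FPKM in the males. The pseudogenes Rpl17-ps5 and Gm12191 stood out in 1 pup each. Rpl17-ps5 had 67.9 and 1.68 FPKM in the females and 1.82 and 1.36 FPKM in the males. Gm12191 had 6.12 and 8.35 FPKM in the females and 8.38 and 189.7 FPKM in the males.

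A rule set after the values had been seen took genes with 10 FPKM or more in some pup and less than 1 FPKM in another. It found 15 genes, 6 of them on chromosome X or Y and 3 on chromosome 17. How many of all genes lie on these chromosomes was not counted, so no excess can be read from these numbers. The 3 on chromosome 17 were low in male replicate 3 alone. Prss22, a serine protease gene at 23993534 to 23998100, had 32.2 and 33.4 FPKM in the females and 0.424 and 33.4 FPKM in the males. H2-Ea-ps, a pseudogene of the major histocompatibility complex at 34341959 to 34344645, had 44.5 and 37.4 FPKM in the females and 0.899 and 44.04 FPKM in the males. H2-T22, a nonclassical class I gene of the same complex at 36037128 to 36042747, had 12.3 and 12.02 FPKM in the females and 0.860 and 10.5 FPKM in the males (GRCm38). Gm10020, a protein-coding gene on chromosome 15, was low in female replicate 4 alone, with 0.260 and 31.5 FPKM in the females and 29.7 and 24.8 FPKM in the males.

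Sex was the labelled difference among these pups, and sex-linked genes matched the labels in all 4. Xist, the RNA that silences 1 X chromosome in females, had 70.1 and 65.9 FPKM in the females and 0.0189 and 0.0368 FPKM in the males. Eif2s3y, a Y-linked translation factor gene, had 0 and 0 FPKM in the females and 26.8 and 32.1 FPKM in the males. Ddx3y, a Y-linked RNA helicase gene, had 0 and 0 FPKM in the females and 15.5 and 19.7 FPKM in the males. With 2 pups against 2, an exact permutation test of a single gene cannot give a p below 0.333, so the contrast was tested with limma across all genes. Of 13668 genes tested 5 (0.0366%) passed an adjusted p of 0.05, 1 higher and 4 lower in the females, and 513 had an unadjusted p below 0.05.

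The gene called higher was Xist, with a difference (female minus male) of 6.07 on the log2(FPKM + 1) scale (SE 0.12, limma adjusted p = 0.000223). By limma, those called lower were Eif2s3y (-4.92, SE 0.15, adjusted p = 0.00112), Ddx3y (-4.21, SE 0.17, adjusted p = 0.00263), the Y-linked lincRNA RP24-540G19.3 (-3.91, SE 0.22, adjusted p = 0.0146) and Rpsa-ps10 on chromosome 3 (-5.21, SE 0.21, adjusted p = 0.00263). Fold changes against a group listed at 0 depend on the added constant and are not bounds. Rpsa-ps10 had 3.46 and 2.88 FPKM in the females and 186 and 126 FPKM in the males. It is named as a pseudogene of the ribosomal protein gene Rpsa but listed as protein coding, and reads shared with its copies make its level uncertain.

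Other sex-linked genes missed the threshold. The Y-linked Uty had 0 and 0 FPKM in the females and 3.83 and 4.84 FPKM in the males (limma adjusted p = 0.0533) and Kdm5d 0 and 0 FPKM in the females and 3.62 and 5.18 FPKM in the males (adjusted p = 0.0866). The X-linked genes Kdm5c, with 22.4 and 24.9 FPKM in the females and 8.17 and 14.8 FPKM in the males, and Eif2s3x, with 24.4 and 25.7 FPKM in the females and 9.84 and 14.8 FPKM in the males, both known to escape X inactivation in mice, had differences of 1.03 and 0.99 and an adjusted p of 0.780 in limma. Both females lay above both males in these genes, as in 24.3% of all genes tested. The count of calls depended on the library left out: 71 without female replicate 4, 33 without female replicate 5, 5 without male replicate 3 and 3515 without male replicate 6, where replicate 3 was the lone male and was assumed to vary as the females do.

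Of the 48 lists, that of interferon-stimulated genes had the highest median CV after the sex-linked genes, 45.9%. Interferons are cytokines of antiviral defence. They act through transcription factors that bind an interferon-stimulated response element (ISRE) in the promoters of their targets. Of 20 such genes 17 were at 1 FPKM or more in every lung, and the list held 0.0674% and 0.0878% in the females and 0.0385% and 0.0362% in the males. In 18 of the 20 female replicate 5 was the highest pup (28.8% of all genes), and in 15 male replicate 6 was the lowest (18.8% of all genes).

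**Figure D5:**
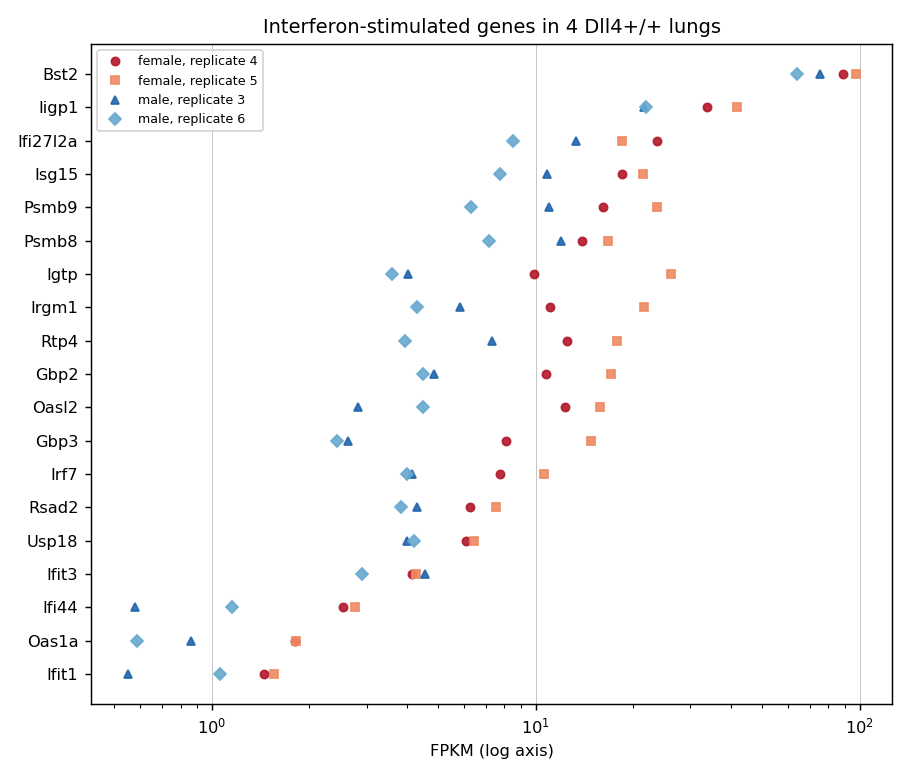
FPKM of 19 of the 20 interferon-stimulated genes in the 4 Dll4+/+ lungs, on a log axis, with a symbol for each pup. Female replicate 5 is highest in 17 of the 19 genes and male replicate 6 lowest in 14.

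By role, Irf7, a transcription factor that amplifies the response, had 7.73 and 10.6 FPKM in the females and 4.13 and 4.01 FPKM in the males, with the highest value in female replicate 5. Of the antiviral effectors, Isg15, a ubiquitin-like modifier, had 18.4 and 21.4 FPKM in the females and 10.8 and 7.73 FPKM in the males. Bst2, which tethers virus particles, had 88.7 and 97.4 FPKM in the females and 75.5 and 64.1 FPKM in the males. Oasl2, a member of the oligoadenylate synthetase family, had 12.3 and 15.7 FPKM in the females and 2.82 and 4.48 FPKM in the males. In 19 of the 20 genes of the list both females lay above both males, beside 24.3% of all genes tested. Of the interferon-inducible GTPases, which act against intracellular pathogens, Igtp had 9.90 and 26.2 FPKM in the females and 4.02 and 3.59 FPKM in the males. Irgm1 had 11.1 and 21.5 FPKM in the females and 5.84 and 4.30 FPKM in the males, and the pattern was the same in the guanylate-binding proteins. Gbp3 had 8.08 and 14.8 FPKM in the females and 2.63 and 2.44 FPKM in the males. Gbp2 had 10.7 and 17.1 FPKM in the females and 4.86 and 4.48 FPKM in the males. The CVs of these 4 genes were 63.8% to 96.8%, with female replicate 5 above female replicate 4 in each. Of the immunoproteasome, which cuts peptides for display to T cells, Psmb9 had 16.1 and 23.7 FPKM in the females and 10.98 and 6.30 FPKM in the males.

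In the test of sex 0 of the 20 genes were called. By the limma fit 18 had an unadjusted p below 0.05, all 20 were higher in the females, and the median difference was 0.95 on the log2 scale, beside a median of 0.04 over all 13668 genes, where 513 had such a p and 7831 were higher in the females. Relative to the mean of the 4 pups the list averaged 0.32 and 0.66 in the females and -0.39 and -0.59 in the males. The difference of Igtp was 1.84 with all 4 pups, 2.50 without female replicate 4, 1.18 without female replicate 5, 1.91 without male replicate 3 and 1.78 without male replicate 6. The median difference of the list was 1.10 without female replicate 4 and 0.87 without female replicate 5. It was 1.08 without male replicate 3 and 0.77 without male replicate 6, beside 0.01 to 0.06 over all genes in these fits. Each of these fits left 1 pup of a sex, whose spread could not be measured. With 2 pups of each sex, sex cannot be told apart from other differences between these pups. Genes of class II antigen presentation had a median difference of 0.12, with Cd74, the invariant chain, at 283 and 256 FPKM in the females and 258 and 289 FPKM in the males, and the macrophage list gave no such order.

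The promoters of these genes are shown because these members varied together over the pups and are known targets of interferon. Of the 20 genes 15 had an entry in the RefSeq promoter table (GRCm38.p6, 250 bases before to 50 bases after the start). The ISRE core GAAANNGAA, where N is any base, was searched on both strands and was found in 11 of the 15 (73.3%), against 8.66% of 9768 expressed genes with a promoter, 8.56% of all 32851 promoters and 0 of 17 cell cycle genes. It was also found in 2 of 9 (22.2%) of the 20 most abundant genes and in 13 of 67 (19.4%) of the 100 most abundant that had a promoter. Matches may overlap each other. The list was made of known interferon targets, so its high share of matches says nothing about the differences between pups. The 120 bases before the start are given 5′ to 3′ in the direction of the gene, with matches in capitals, for genes of 3 roles.
Isg15, chr4:156200819-156200938 (- strand): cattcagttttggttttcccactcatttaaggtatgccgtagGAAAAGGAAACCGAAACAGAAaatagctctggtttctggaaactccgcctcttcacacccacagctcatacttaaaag
Ifit1, chr19:34640769-34640888 (+ strand): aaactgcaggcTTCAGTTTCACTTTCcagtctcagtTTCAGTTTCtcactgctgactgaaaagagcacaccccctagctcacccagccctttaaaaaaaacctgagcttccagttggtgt
Gbp3, chr3:142559924-142560043 (+ strand): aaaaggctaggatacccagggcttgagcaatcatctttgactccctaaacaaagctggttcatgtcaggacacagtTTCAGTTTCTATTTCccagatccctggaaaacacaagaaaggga
Irgm1, chr11:48871421-48871540 (- strand): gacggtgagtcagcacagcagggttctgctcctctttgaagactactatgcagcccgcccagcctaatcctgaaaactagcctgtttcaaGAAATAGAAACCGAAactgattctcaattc
Igtp, chr11:58199436-58199555 (+ strand): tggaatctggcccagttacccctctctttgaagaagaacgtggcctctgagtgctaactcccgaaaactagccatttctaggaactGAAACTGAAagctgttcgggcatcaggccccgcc
Isg15 and Ifit1 held 3 matches each, Gbp3 and Irgm1 2 and Igtp 1. A second promoter entry of Gbp3 held none in this window. Irf7, Oasl2 and Psmb9, whose levels are given above, held no match before the start. Ifit1, an RNA-binding antiviral protein with 3 matches, had a low level and a smaller range, 1.44 and 1.55 FPKM in the females and 0.549 and 1.06 FPKM in the males, while Igtp with 1 match had the widest relative range of the list, a CV of 96.8%. A match is a description of the letters in this window and not a site of binding. The TATA box TATAAA, searched on the strand of the gene between 45 and 11 bases before the start, was found in 0 of the 9 genes among the 20 most abundant that had a promoter entry, against 1.66% of expressed genes.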

How the data were processed

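RNA from right lungs (MirVana kit) was selected for poly-A, made into libraries with the NEBNext Ultra kit and sequenced as 150-bp paired ends on a NovaSeq. The authors' deposited table gives FPKM for 35275 genes in 8 sample columns, with CASAVA, STAR and GRCm38.p4 named in the submitters' notes on processing (versions not given). Of these columns the 4 Dll4+/+ ones were used, and 2 further Dll4+/+ samples were not analysed here. Group means, ratios of means and p-value columns of the authors were not used, nor were the columns of heterozygous pups. The value 0.005, which stands in place of low values in 180 genes, was set to 0.

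Fragments were recovered as the library total at which FPKM became whole counts (tolerance 0.01) for a gene length. Where the annotated exon length did not give whole counts, the smallest length that did was taken, a rule set after the values had been seen. Listed genes then summed to 98.2% to 98.3% of each total. Counting errors, shares of fragments and the ranking by FPKM times length rest on this rule. Counting errors cover counting alone, and the test does not use the rule. A length taken too small lowers the fragments of a gene and raises its counting error. Eif2s3y, at 26.8 and 32.1 FPKM in the males, was given 33 and 44 fragments. Ddx3y, at 15.5 and 19.7 FPKM, was given 317 and 450. Summed FPKM is the sum over all listed genes, and shares are percentages of it. Positions and exon lengths came from GENCODE M21 (GRCm38), which matched 34490 genes, and promoters from RefSeq (GRCm38.p6). Of 459 listed symbols 458 were found, Ahsp being the exception.

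Females were set against males with limma 3.58.1 (R 4.3.3) on log2(FPKM + 1), with a mean-variance trend, two-sided, over genes at 1 FPKM or more in at least 2 libraries, with Benjamini-Hochberg adjustment and a threshold of 0.05. Scripts were tested on simulated data. Alternatives changed the pseudocount (0.1), filter, scaling, trend, thresholds, share unit and members, and left out each replicate.

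The genes named were the 20 most abundant, the leading genes of each type, the leading and defining members of each list, the 15 most variable, the 10 steadiest and those called by sex. Other list members, sums over gene copies, the ribosomal protein set and the length classes were chosen after values were seen. Members and lists were chosen with earlier results of these data known. P-values measure the spread between pups, which may share litters. Some listed genes are not reported here by name.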

Additional observations from a re-analysis of the deposited data

Results flagged for a closer look

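A value was singled out where the gap between the highest or lowest pup and its neighbor took up most of the range over the 4 pups (Dixon's ratio). Of 139 values examined 18 passed, with male replicate 3 apart in 15 of them, male replicate 6 in 2 and female replicate 4 in 1. Of the 18, 6 are genes chosen for a large spread. Without the genes chosen by spread 12 of 114 values (10.5%) passed, 11 of them through replicate 3. Chance flags about 1 in 20 groups, but the values share libraries and are not independent.

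In male replicate 3 the number of genes at 1 FPKM or above was lowest (ratio 0.9238) and the summed FPKM was highest (0.8462), with 442671 and 432404 FPKM in the females and 511696 and 444602 FPKM in the males. Among gene lists, it was lowest for elastic fibers and collagens (0.8447), mitochondrially encoded genes (0.8629) and sterol and fatty acid synthesis (0.8526), whose shares were 0.105% and 0.103% in the females and 0.0666% and 0.109% in the males. It was highest for the share of the 2 genes typed as 3' overlapping noncoding RNA (0.9016), a class with less than 0.1 FPKM per gene on average.

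Among single genes, replicate 3 was highest for the elongation factor Eef1a1 (0.9427), the ribosomal protein genes Rps27 (0.9097) and Rps14 (0.9001), the myosin light chain Myl6 (0.9171) and the pseudogene Rps2-ps13 (0.9987). It was lowest for mt-Cytb (0.8678), Rps2-ps10 (0.8436), the protease gene Prss22 (0.9644) and H2-Ea-ps (0.8374). Male replicate 6 was highest for the hypoxia and glycolysis list (0.8361), with 0.110% and 0.111% in the females and 0.1096% and 0.116% in the males, and for the pseudogene Gm12191 (0.9877). Female replicate 4 was highest for the pseudogene Rpl17-ps5 (0.9931). Length of genes moved with the median distance of replicate 3, and the part of length in these values was not tested.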

How the results depend on the processing

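The number of genes called between the sexes was 5, and it was 6 with a pseudocount of 0.1, 6 with median ratio scaling, 4 without a filter on low values (RP24-540G19.3 then had a limma adjusted p of 0.156) and 9 without the mean-variance trend. With each replicate left out it ran between 5 and 3515, the highest without male replicate 6. The lone pup of a sex was then assumed to vary as the others did. Without 1 male, Y-linked genes at 0 in both females had too few libraries to be tested. Genes at 1 FPKM or more in every lung numbered 12729, and at 10 FPKM or more 6048. With each replicate left out they numbered 12792 to 13049. Protein-coding genes held 96.6% of the summed FPKM but 97.7% of the fragments, and 96.5% to 96.9% with each replicate left out. The median CV ran between 6.46% and 13.4% with each replicate left out, the lowest without male replicate 3. Shares of the 35 marker lists moved by more than 1 SD over pups in 29 lists when weighed by fragments and in all 35 without the top member. With 4 pups, leaving out 1 cannot move a mean by more than 1 SD over the 4. That measure therefore cannot show how far a share depends on a single pup. Without male replicate 3 the mitochondrial share was 2.80% ± 0.0901 (SD, n = 3), in place of 2.49% ± 0.608 (SD, n = 4). For classes of marker lists, program lists and the interferon-stimulated genes, leaving out pups was chosen after seeing the data. For the single genes followed in the sex contrast, no direction reversed under the alternatives run. Of the 20 interferon-stimulated genes, all 20 were higher in the females with all 4 pups but 19 without male replicate 6. No paired analysis was possible because the 4 Dll4+/+ libraries carry 4 different replicate numbers. Values near 0.1 FPKM rest on few fragments. The causes of these changes were not tested.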
